A study of Mus musculus with 14 samples.

Results

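Tissue remodelling in the mammary gland depends on enzymes that cut proteins and on the inhibitors that hold them in check, and 68 such genes were followed here across 5 sorted populations of the mouse mammary gland. They were chosen by symbol, as the matrix metalloproteinases (Mmp), the Adam and Adamts families, the membrane and secreted serine proteases, plasminogen activators, cathepsins, calpains and caspases, together with tissue inhibitors of metalloproteinases (Timp), serpins, Kunitz inhibitors (Spint and Tfpi), a whey acidic protein domain gene (Wfdc2) and a cystatin (Cst3). Of the 6044 named genes in the deposited table, 71 matched the symbol rule, and 3 of these were left out by the rule itself. The 68 genes were read by 98 probe sets, and 25 genes had more than 1 probe set, whose values were averaged. The symbol rule follows names and not function, so it also takes in Casp8ap2, which is not a protease, and proteins of these families that have lost their catalytic activity.

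RNA came from virgin C57BL/6 mice aged 6 to 8 weeks per the labels, whose mammary glands were dissociated with collagenase and hyaluronidase, dispase and trypsin, stained and sorted by flow cytometry. No mice were treated or genetically altered. Basal populations were set against luminal ones by their surface proteins: Thy-1+CD24medCD49fhigh cells (labelled stem cells in the design, n = 3 arrays, here Thy-1+ basal), Thy-1-CD24medCD49fhigh cells (labelled progenitors, n = 3, Thy-1- basal), CD24medCD49fmed cells (labelled myoepithelial, n = 3), CD24highCD49fmed cells (labelled luminal progenitors, n = 3, CD24high luminal) and CD24medCD49f-/low cells (labelled differentiated luminal cells, n = 2, CD49f-/low luminal). The study's methods write CD24lowCD49fmed for the myoepithelial population, and the spelling of the labels was kept here. The names of the populations rest on the sort gates, and each population is a mixture of cells within its gate. Nothing in the labels tells if each replicate was a different animal, so p-values measure the spread between these arrays, which may in part be technical.

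Expression was measured on 14 Affymetrix Mouse Genome 430 2.0 arrays, and the values are log2 signals that the authors centred on 0 for each probe set over the 14 arrays. A value of 1 therefore means a signal that was 1 log2 unit above the mean of that gene over the arrays, and levels cannot be compared between genes. Because the authors kept only probe sets that differed by at least 2.0 log2 units between some pair of arrays, each of the 68 genes had to vary somewhere, and proteases outside the table were not analysed here. Calls were read against all 7190 rows tested, which had passed the same filter. In a bulk sample, fewer cells of a type and less RNA per cell cannot be told apart.

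Markers of the lineages followed the labels. All 15 basal epithelial markers were lower and all 13 measured luminal markers higher in the luminal than in the basal populations. Markers of some other cell types moved with the lineages too: 10 of 12 fibroblast markers, 9 of 13 endothelial markers and 5 of 9 markers of cornified keratinocytes were lower in the luminal populations. Of 7 myeloid markers, 1 was higher and 0 were lower there, and of 5 Schwann cell markers, 1 was higher and 2 were lower. The median of the fibroblast list was -1.51 to -0.68 in the luminal arrays and 0.01 to 1.07 in the basal arrays, and that of the endothelial list was -1.03 to -0.82 and -0.91 to 3.08. The labels list stains for CD45 (blood cells), CD31 (endothelium) and Ter119 (red cells), and the study's methods also list one for CD140α (fibroblasts). Such stains are used to remove these cells, but how they were gated is not given in the sources used here. Centred values have no zero, so absence of a marker cannot be read from them, and the part of these cells in the results was not tested. Within groups the Thy-1+ basal arrays varied most, with a median SD over the 68 genes of 0.874, against 0.509 in Thy-1- basal, 0.276 in myoepithelial, 0.231 in CD24high luminal and 0.155 in CD49f-/low luminal cells. Replicates 1 and 3 of the Thy-1+ basal population had the lowest medians over all rows, -0.74 and -0.51, where the other arrays lay between -0.15 and 0.28.

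Extracellular proteases act in cascades. Plasminogen activators make plasmin, which cleaves matrix and activates metalloproteinases, and Timp proteins block these in turn. At the epithelial surface, the membrane serine proteases matriptase and prostasin are held by the Kunitz inhibitors Spint1 and Spint2, and Adam10 and Adam17 shed the outer parts of membrane proteins such as Notch receptors and growth factor precursors. Cathepsins digest proteins mainly in lysosomes, while calpains and caspases cut proteins inside the cell. Branching and involution of the mammary gland are the settings in which these enzymes are best known.

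The first question was which of these genes separate the luminal from the basal lineage. Matrix proteases, plasminogen activators and serpins were mostly lower in the luminal populations, while membrane serine proteases, their Kunitz inhibitors and several cathepsins and calpains were higher there. Of the 68 genes, 17 were higher and 29 lower in luminal than in basal cells (limma, adjusted p under 0.05, mean of the 2 luminal populations minus mean of the 3 basal populations). That is 67.6% of them, against 45.1% of all rows tested, with 25% against 27.7% higher and 42.6% against 17.4% lower. Their median difference was -0.58 log2, and that of all rows 0.33. Luminal and basal arrays did not overlap for 32 of the genes, 12 with every luminal array above every basal array and 20 with every one below, against 26% of all rows.

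These shares depended in part on how arrays were scaled. With each array centred on its median, 14 genes were higher and 30 lower, and over all rows 1430 were higher and 1569 lower, where the deposited values gave 1989 and 1253. After quantile normalization the 68 genes split into 16 and 29 and all rows into 1732 and 1511. The median of all rows moved to 0.06 and 0.09, and the median of the 68 genes to -0.86 and -0.67. The 68 genes thus leaned to the basal side under each of these scalings.

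**Figure D1:**
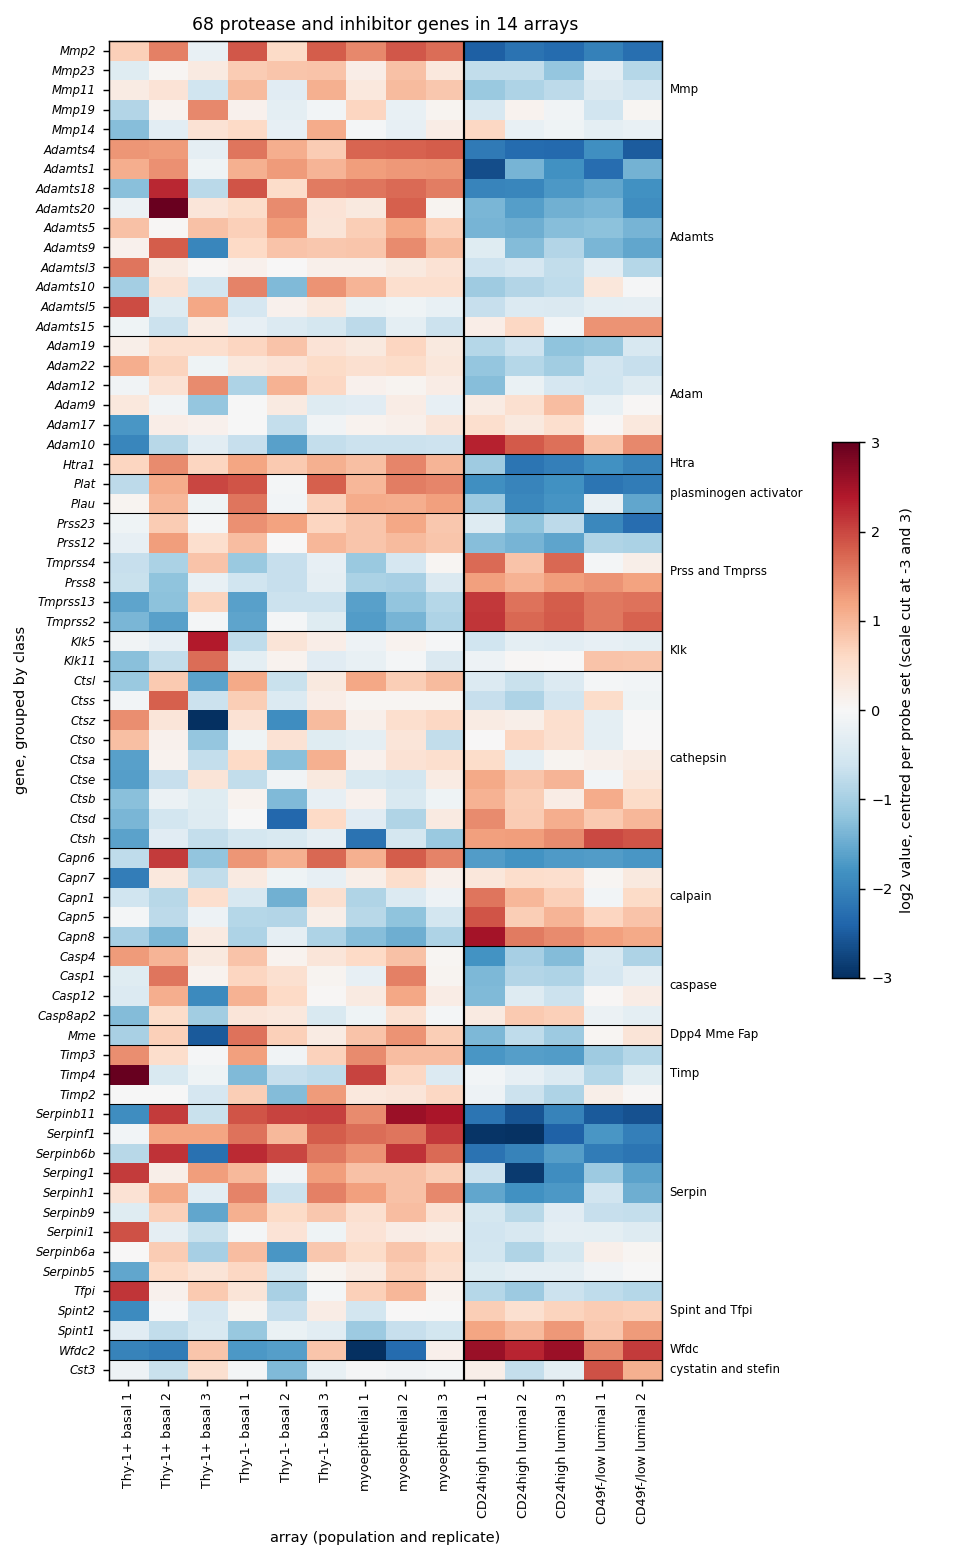
Log2 values of the 68 protease and inhibitor genes (rows, grouped by class) in the 14 arrays (columns, grouped by population), centred per probe set; red is above and blue below the mean of a gene, and colours are cut at -3 and 3. The luminal arrays, right of the vertical line, are blue for Mmp2, Adamts4, Htra1 and Serpinf1 and red for Tmprss2, Prss8, Ctsh and Wfdc2, while the Thy-1+ basal arrays differ among themselves.

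Matrix metalloproteinases were lower in luminal cells where they passed the test. Of 5 Mmp genes, 3 were lower in luminal cells, none was higher and 2 did not pass the test, with a class median of -1.15. The shares of all rows were 17.4% lower and 27.7% higher. Mmp2, gelatinase A, which degrades type IV collagen, stood at -2.03 and -2.27 in the CD49f-/low luminal arrays and at -2.44, -2.21 and -2.30 in the CD24high luminal arrays. In the 9 basal arrays it ranged from -0.22 to 1.86, with a median of 1.51. All luminal arrays were thus below all basal ones, and the lowest basal array was Thy-1+ replicate 3. The difference of -3.48 (SE 0.32, limma adjusted p = 5.12e-08) is a signal 11.1-fold lower in luminal cells. Mmp11, stromelysin-3, differed by -1.15 (SE 0.30, limma adjusted p = 4.51e-03), and Mmp23 by -1.15 (SE 0.26, limma adjusted p = 1.52e-03). Mmp19 differed by -0.31 (SE 0.34) and Mmp14 by -0.11 (SE 0.33), with limma adjusted p of 0.454 and 0.799. Mmp14 encodes the membrane-bound enzyme that activates the Mmp2 proenzyme, and its basal values of -1.28 to 1.12 spanned the whole range of its luminal values, -0.29 to 0.63.

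The Adamts family, secreted enzymes that cleave proteoglycans such as versican and aggrecan, followed the same direction. Of 10 genes, 7 were lower, 1 was higher and 2 did not pass the test, against 17.4% of all rows lower and 27.7% higher. Adamts4 stood at -1.85 and -2.50 in CD49f-/low and at -2.13, -2.30 and -2.34 in CD24high luminal arrays, against -0.27 to 1.81 in basal arrays with a median of 1.32. Adamts1 stood at -2.28 and -1.41 and at -2.65, -1.40 and -1.81, against -0.14 to 1.37 with a median of 1.26. For both genes the lineages did not overlap, and the basal minimum again lay in Thy-1+ replicate 3. Their differences were -3.45 (SE 0.31, limma adjusted p = 3.74e-08) and -2.96 (SE 0.31, limma adjusted p = 3.64e-07). Adamts18 fell by 2.79 (SE 0.44) and Adamts20 by 2.41 (SE 0.43) on the log2 scale, with limma adjusted p of 3.88e-05 and 1.61e-04. Both were widely spread among basal arrays: Adamts18 was at -1.26 and -0.81 in Thy-1+ replicates 1 and 3 but at 0.54 to 2.27 in the other basal arrays, and Adamts20 reached 2.96 in Thy-1+ replicate 2. Adamts5, Adamts9 and the Adamts-like gene Adamtsl3 differed by -2.09, -1.76 and -0.94. Adamts1 and Adamts5 lie next to each other in the genome. The 2 probe sets of Adamts5 differed in size, at -3.01 and -1.18.

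Adamts15 was the exception among the proteoglycan-cleaving enzymes. It was at 1.34 and 1.35 in the CD49f-/low luminal arrays, at 0.19, 0.61 and -0.09 in the CD24high luminal arrays and between -0.80 and 0.26 in the basal arrays. The luminal mean was higher by 1.17 (SE 0.27, limma adjusted p = 1.47e-03), although the ranges of the lineages met between -0.09 and 0.26. Adamts10 and Adamtsl5 differed by -0.64 each and did not pass the test (SE 0.40 and 0.33, limma adjusted p = 0.192 and 0.122).

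Secreted and membrane serine proteases went in opposite directions. Htra1, a secreted serine protease that cuts matrix proteins, was between -2.18 and -1.06 in the luminal and between 0.64 and 1.47 in the basal arrays, which did not overlap. It differed by -2.85 (SE 0.28, limma adjusted p = 1.57e-07), 7.21-fold lower in luminal cells. Plat, tissue plasminogen activator, stood at -2.20, -2.10, -1.85, -1.98 and -1.81 in the luminal arrays and ranged from -0.79 to 2.01 in the basal arrays with a median of 1.45. It differed by -3.12 (SE 0.41, limma adjusted p = 4.54e-06). Plau, urokinase, differed by -1.98 (SE 0.34, limma adjusted p = 9.09e-05). Its lineages did not overlap, although CD49f-/low replicate 1 at -0.23 lay close to the basal minimum of -0.14, and the other luminal arrays lay between -1.93 and -1.08. Both plasminogen activators were thus lower in luminal cells. Prss23 and Prss12 (neurotrypsin, which cleaves agrin) differed by -2.19 (SE 0.28) and -1.85 (SE 0.29), with limma adjusted p of 3.64e-06 and 4.63e-05.

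Of the 6 genes of the Prss and Tmprss class, 4 were higher in luminal cells and 2, Prss23 and Prss12, were lower. Of all rows, 27.7% were higher and 17.4% lower. Tmprss2, a transmembrane serine protease, was at 1.59 and 1.77 in CD49f-/low and at 2.13, 1.73 and 1.85 in CD24high luminal arrays. In basal arrays it ranged from -1.67 to -0.06 with a median of -1.38, so that every luminal array lay above every basal one. It was higher by 2.80 (SE 0.33, limma adjusted p = 1.29e-06), or 6.96-fold. Its 3 probe sets gave 4.05, 3.45 and 0.89, the last from a probe set whose suffix marks probes shared by several transcripts. Tmprss13 was higher by 2.70 (SE 0.35) and Prss8, prostasin, by 1.90 (SE 0.27), with limma adjusted p of 4.17e-06 and 1.13e-05, and neither overlapped between the lineages. Prss8 was the tightest of these genes, at 1.36, 1.22, 1.22, 1.03 and 1.25 in the luminal arrays and between -1.22 and -0.23 in the basal arrays. Tmprss4 was higher by 1.22 (SE 0.34, limma adjusted p = 6.33e-03), and its luminal values split by population, as described further on. Of the kallikreins, Klk11 differed by 0.58 and Klk5 by -0.54, and neither passed the test (SE 0.37 and 0.38, limma adjusted p = 0.209 and 0.247). Klk5, a protease of the shedding epidermis, stood at 2.39 in Thy-1+ replicate 3 and between -0.77 and 0.39 in the other arrays, and Klk11 was at 1.68 in the same array. That array had the highest median of cornified keratinocyte markers, 4.24, against -1.46 to 2.10 in the other basal arrays, and the part of such cells in these values was not tested.

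**Figure D2:**
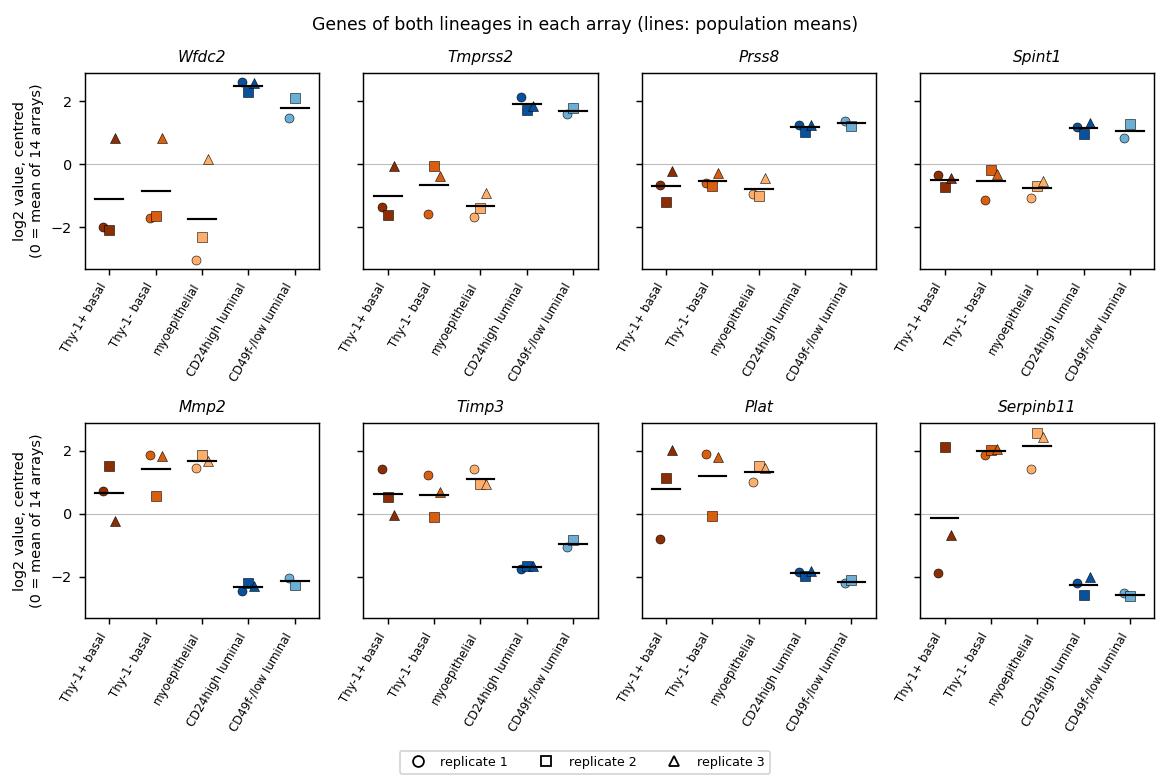
Centred log2 values (y axis) of 8 genes in each array of the 5 populations (x axis); symbols are replicates and horizontal lines population means. Wfdc2, Tmprss2, Prss8 and Spint1 lie higher in every luminal array than in every basal array, and Mmp2, Timp3, Plat and Serpinb11 lie lower, Serpinb11 with Thy-1+ replicate 1, at -1.87, just above the luminal values.

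The inhibitors that pair with these enzymes were split in the same way. Spint1, which inhibits matriptase and prostasin among others, was at 0.81 and 1.27 in CD49f-/low and at 1.18, 0.96 and 1.30 in CD24high luminal arrays, against -1.15 to -0.20 in basal arrays. It was higher by 1.71 (SE 0.27, limma adjusted p = 4.27e-05), and Spint2 by 1.06 (SE 0.32, limma adjusted p = 0.0105). Neither overlapped between the lineages. Tfpi, the inhibitor of the tissue factor pathway, was lower by 1.30 (difference -1.30, SE 0.34, limma adjusted p = 4.06e-03). It was highest in Thy-1+ replicate 1, at 2.13, which is also the array with the highest median of endothelial markers, 3.08, although CD31 was stained in the sort.

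Timp3, the inhibitor that is bound to the matrix, was the single Timp gene past the test. It stood at -1.07 and -0.85 in CD49f-/low and at -1.75, -1.64 and -1.67 in CD24high luminal arrays, and between -0.10 and 1.42 in basal arrays, where the median was 0.94. The lineages did not overlap and differed by -2.10 (SE 0.30, limma adjusted p = 1.59e-05). Timp2 differed by -0.40 (SE 0.36, limma adjusted p = 0.358) and Timp4 by -0.65 (SE 0.48, limma adjusted p = 0.277). Timp4 was high in Thy-1+ replicate 1 (3.10) and myoepithelial replicate 1 (2.03) and at most 0.63 in the other arrays. Those arrays also held the highest medians of endothelial markers, 3.08 and 2.66, although CD31 was stained in the sort, and the part of endothelial cells in the Timp4 values was not tested.

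Serpins, a family in which most members trap serine proteases but some have other tasks, held the largest difference of the 68 genes. Of 9 genes, 6 were lower in luminal cells and none was higher, against 17.4% of all rows lower and 27.7% higher. Serpinb11 stood at -2.52 and -2.62 in CD49f-/low and at -2.19, -2.59 and -2.01 in CD24high luminal arrays. In basal arrays it ranged from -1.87 to 2.57 with a median of 2.02, and the low end came from Thy-1+ replicates 1 and 3 at -1.87 and -0.67. It differed by -3.75 (SE 0.45, limma adjusted p = 1.98e-06), 13.4-fold lower in luminal cells. Serpinb6b repeated this pattern at -2.09, -2.18, -2.21, -2.0 and -1.65 in luminal arrays and -0.83 and -2.24 in the same pair of Thy-1+ arrays, against 1.35 to 2.25 in the other basal arrays. Its difference was -3.17 (SE 0.48, limma adjusted p = 2.60e-05), and the lineages overlapped because Thy-1+ replicate 3 lay below every luminal array. Serpinb9, its neighbour in the genome, differed by -0.98 (SE 0.32, limma adjusted p = 0.0198).

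Serpinf1 (pigment epithelium-derived factor), which does not inhibit proteases, was between -2.96 and -1.74 in luminal and between -0.08 and 2.11 in basal arrays. It differed by -3.67 (SE 0.30, limma adjusted p = 1.19e-08), and all basal arrays lay above all luminal ones. Serping1, the C1 inhibitor, differed by -2.48 (SE 0.38, limma adjusted p = 3.20e-05), and Serpinh1, a chaperone for collagen, by -2.16 (SE 0.36, limma adjusted p = 8.45e-05). Serpinf1, Serping1, Serpinh1 and Mmp2 are known to be made by fibroblasts as well, whose marker list moved in the same direction as given above. CD140α was among the stains of the sort, and the part of such cells was not tested. Serpini1 (neuroserpin, an inhibitor of tissue plasminogen activator), Serpinb6a and Serpinb5 (maspin) differed by -0.61, -0.47 and -0.30 and did not pass the test.

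Wfdc2, a secreted protein with whey acidic protein domains, showed the largest rise. It stood at 1.45 and 2.09 in CD49f-/low and at 2.60, 2.29 and 2.56 in CD24high luminal arrays. Its 9 basal values ran from -3.04 to 0.84 with a median of -1.71, and the values at 0.83, 0.84 and 0.16 were those of replicate 3 of each basal population. These 3 arrays were also those with the highest medians of luminal markers among basal arrays of their population, at -0.31, -0.10 and -0.55. The difference was 3.35 (SE 0.55, limma adjusted p = 6.66e-05), or 10.2-fold.

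Among the Adam genes, Adam10 stood apart. It was at 0.83 and 1.44 in CD49f-/low and at 2.31, 1.83 and 1.66 in CD24high luminal arrays, while basal arrays ranged from -1.96 to -0.33 with a median of -0.68. It was higher in every luminal array and by 2.43 on average (SE 0.31, limma adjusted p = 3.59e-06), or 5.39-fold. Adam17, the other well-known sheddase, differed by 0.49 and did not pass the test (SE 0.32, limma adjusted p = 0.214), nor did Adam9 with a difference of 0.39 (SE 0.30, limma adjusted p = 0.287). Adam19, Adam22 (which lacks protease activity) and Adam12 were lower in luminal cells, with differences of -1.33, -1.31 and -0.90. The call for Adam12 (limma adjusted p = 0.0420) was lost when any of several arrays was left out, Thy-1+ replicate 3 among them (-0.76, limma adjusted p = 0.0656).

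Cathepsins were higher in luminal cells for 4 of 9 genes, and none was lower, against 27.7% of all rows higher and 17.4% lower. Ctsh stood at 1.99 and 1.88 in CD49f-/low and at 1.22, 1.26 and 1.42 in CD24high luminal arrays, and between -2.21 and -0.28 in basal arrays. The lineages did not overlap, and the difference was 2.48 (SE 0.31, limma adjusted p = 2.76e-06). The aspartic protease Ctsd was higher by 1.56 (SE 0.40) and the cysteine protease Ctsb by 1.17 (SE 0.31), with limma adjusted p of 3.55e-03 and 4.99e-03. Ctse was higher by 0.93 (SE 0.33, limma adjusted p = 0.0269), but its 2 probe sets gave 2.25 and -0.39, the single case of opposite signs among the 68 genes. That call was lost with arrays centred on their medians (0.66, limma adjusted p = 0.109) and after quantile normalization (0.78, limma adjusted p = 0.0586). Ctsa, Ctso, Ctsz, Ctss and Ctsl differed by 0.24, 0.21, 0.15, -0.46 and -0.47 and did not pass the test. Cst3, cystatin C, an inhibitor of cysteine cathepsins, was higher by 0.85 (SE 0.31, limma adjusted p = 0.0322). That rise was one of CD49f-/low cells, with a mean of 1.49, while CD24high luminal cells were at -0.27. The basal means were -0.07 in myoepithelial, -0.11 in Thy-1+ and -0.54 in Thy-1- cells. The call for Cst3 was lost with arrays centred on their medians (0.58, limma adjusted p = 0.150). Its difference was 0.63 without CD49f-/low replicate 1.

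Calpains, proteases that calcium activates, held both directions. Capn8 was at 1.23 and 1.13 in CD49f-/low and at 2.51, 1.57 and 1.42 in CD24high luminal arrays against -1.46 to 0.26 in basal arrays, which did not overlap. It was higher by 2.38 (SE 0.31, limma adjusted p = 5.53e-06). Capn5 and Capn1 were higher by 1.55 and 1.10 (SE 0.30 and 0.34, limma adjusted p = 3.33e-04 and 0.0135), and Capn7 differed by 0.51 without passing the test. With arrays centred on their medians Capn1 did not pass (0.83, limma adjusted p = 0.0657). Capn6, which lacks the catalytic cysteine, was the reverse. It lay between -1.80 and -1.67 in the luminal arrays and between 1.06 and 2.09 in the basal arrays, other than Thy-1+ replicates 1 and 3 at -0.76 and -1.19. Its difference was -2.67 (SE 0.41, limma adjusted p = 2.97e-05).

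Caspases of the inflammatory group were lower in luminal cells where they passed the test. Casp4 differed by -1.64 (SE 0.29, limma adjusted p = 1.34e-04) and Casp1, which matures interleukin-1 beta, by -1.15 (SE 0.35, limma adjusted p = 0.0123). Casp12 differed by -0.56 (SE 0.39) and Casp8ap2 by 0.32 (SE 0.32), with limma adjusted p of 0.246 and 0.413. Casp1, Casp4 and Casp12 lie side by side in the genome. The difference of Casp1 was -1.09 without CD49f-/low replicate 1, which left 1 array of that population. Mme (neprilysin or CD10), a membrane peptidase used as a marker of myoepithelial cells, differed by -0.73 (SE 0.40, limma adjusted p = 0.146). It passed the test without Thy-1+ replicate 3 (-0.99, limma adjusted p = 0.0192), the array with its lowest value, -2.53. Of the 46 calls, those of Adam12, Cst3, Ctse and Serpinb9 were each lost without at least 1 array of a population of 3 arrays. Among fits that left out 1 array, those of Adamtsl3, Capn1 and Casp1 were lost only without a CD49f-/low array. Such fits left 1 array of that population, so their calls are not counted.

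**Figure D3:**
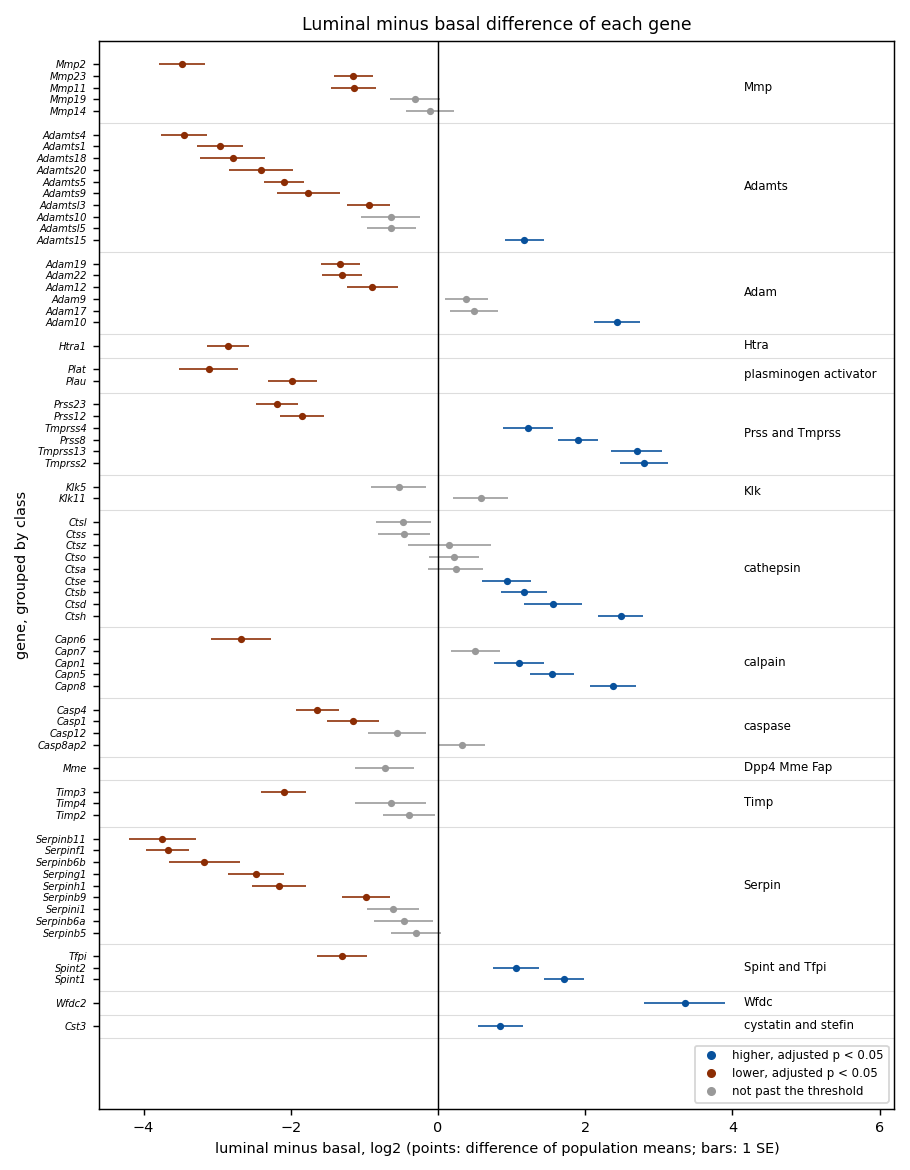
Luminal minus basal difference (x axis, log2) of each of the 68 genes (y axis, grouped by class), with bars of 1 SE; blue points were higher and brown points lower at a limma adjusted p under 0.05, and grey points did not pass. Brown points prevail in the Mmp, Adamts, plasminogen activator and Serpin classes, and blue points lie mainly in the Prss and Tmprss, cathepsin and calpain classes.

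Promoter sequence was read for the called genes with the largest differences in each direction that had a single promoter window at the outermost annotated start of the gene, to set the letters beside the values. Of the 68 genes, 50 had at least 1 window in the RefSeq table for GRCm38.p6, and 11 had more than 1. In 32 of the 50 a window lay at the outermost start, while in 14 every window lay more than 50 bases inside the gene, and such genes are not shown. The 250 bases before the start of transcription are given 5′ to 3′ on the strand of the gene, in lower case with matches in capitals. The AP-1 motif was searched on both strands as TGANTCA, the E-box as CACCTG and the motif of GATA factors as AGATAA. That of ETS factors was searched as CCGGAA, the GC box as GGGCGG and the TATA box as TATAAA, and the CArG box was searched too.
The first 3 are genes lower in luminal cells:
Serpinb11: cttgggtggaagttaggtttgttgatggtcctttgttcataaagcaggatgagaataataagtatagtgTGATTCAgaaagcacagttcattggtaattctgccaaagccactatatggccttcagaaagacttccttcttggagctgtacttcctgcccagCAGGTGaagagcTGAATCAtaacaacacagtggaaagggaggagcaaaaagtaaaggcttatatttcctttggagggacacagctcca
Serpinf1: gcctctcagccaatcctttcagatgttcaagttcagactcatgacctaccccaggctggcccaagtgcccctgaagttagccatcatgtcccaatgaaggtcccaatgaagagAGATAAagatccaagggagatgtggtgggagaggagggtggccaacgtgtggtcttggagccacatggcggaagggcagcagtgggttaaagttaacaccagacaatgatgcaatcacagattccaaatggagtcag
Adamts1: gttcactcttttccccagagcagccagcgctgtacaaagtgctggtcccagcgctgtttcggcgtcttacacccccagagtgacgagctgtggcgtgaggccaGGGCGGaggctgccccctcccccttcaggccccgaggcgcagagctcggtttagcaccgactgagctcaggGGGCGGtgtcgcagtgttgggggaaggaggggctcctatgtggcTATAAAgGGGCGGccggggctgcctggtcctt
The next 3 are genes higher in luminal cells by the test, Cst3 through its CD49f-/low arrays:
Spint1: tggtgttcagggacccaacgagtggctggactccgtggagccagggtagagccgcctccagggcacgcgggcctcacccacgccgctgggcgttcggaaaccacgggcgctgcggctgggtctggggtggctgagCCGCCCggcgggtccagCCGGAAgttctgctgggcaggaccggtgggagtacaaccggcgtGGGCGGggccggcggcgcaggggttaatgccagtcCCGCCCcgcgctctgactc
Ctsd: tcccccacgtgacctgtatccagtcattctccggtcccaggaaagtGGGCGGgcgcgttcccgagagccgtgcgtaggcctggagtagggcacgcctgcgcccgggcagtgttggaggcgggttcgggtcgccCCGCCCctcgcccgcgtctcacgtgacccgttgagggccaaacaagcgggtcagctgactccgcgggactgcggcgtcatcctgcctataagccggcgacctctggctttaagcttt
Cst3: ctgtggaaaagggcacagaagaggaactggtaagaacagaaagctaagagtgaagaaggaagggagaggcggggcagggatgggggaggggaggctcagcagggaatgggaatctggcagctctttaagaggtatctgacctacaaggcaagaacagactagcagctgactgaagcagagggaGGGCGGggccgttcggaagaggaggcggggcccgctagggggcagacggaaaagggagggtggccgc

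Serpinb11 (chr1:107362064-107362313, plus strand) held a pair of AP-1 matches and an E-box, and Serpinf1 (chr11:75422624-75422873, minus strand) a GATA match. Adamts1 (chr16:85803114-85803363, minus strand) held a TATA box and 3 GC boxes. Spint1 (chr2:119237110-119237359, plus strand) held 3 GC boxes and an ETS match. Ctsd (chr7:142387828-142388077, minus strand) held 2 GC boxes and Cst3 (chr2:148875513-148875762, minus strand) 1. Over all genes with a window, the GC box was found in 30 of the 50 and in 32.9% of 27025 genes, and CACCTG in 16 of the 50 and 17.1%. By direction, the GC box was in 7 of the 9 genes higher in luminal cells and in 12 of the 22 lower, CACCTG in 4 and 6, and AP-1 in 1 and 2. AP-1 was found in 4 of the 50 and in 6.87% of all genes, ETS in 3 and 12.2%, the TATA box in 3 and 13%, GATA in 5 and 10.3%, and the CArG box in none of the 50 and in 1.40% of all genes. These counts read the first window listed for each gene, inside the gene or not. The 27025 genes were not limited to those of the deposited table, which had passed the authors' filter, so the sets compared are unlike. A match describes letters only and not a site in use.

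Genes that act with these enzymes were read from lists made apart from the 68. Among 16 measured genes of plasminogen, coagulation and protease receptors, 7 were higher and 7 lower on the luminal side (median 0.48). Among 27 other proteases and peptidases 8 were higher and 7 lower, with a median of -0.18. Among 18 other inhibitors and regulators 4 were higher and 8 lower, with a median of -0.62. Over all rows tested, 27.7% were higher and 17.4% lower, with a median of 0.33. The largest falls over the lists were those of Sparc (-5.18, SE 0.31), a matrix glycoprotein, Slpi (-2.90, SE 0.39), an inhibitor of leukocyte elastase, and Hgf (-2.85, SE 0.43), the growth factor that serine proteases activate. The largest rises were those of Itih5 (2.17, SE 0.30), F3 (2.15, SE 0.27), which is tissue factor, and Fgg (2.11, SE 0.53), a fibrinogen chain. The limma adjusted p was at most 3.04e-03 for these 6 genes. F3 was thus higher in the lineage in which its inhibitor Tfpi was lower. St14 (matriptase), chosen after its value was seen because Spint1, Spint2 and Prss8 act with it, was higher by 1.91 (SE 0.31, limma adjusted p = 5.89e-05).

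The second question was what separates the luminal populations from each other. CD24high luminal cells had less Cst3, Mme, Adamts15, Adamts10 and Klk11 and more Tmprss4, Prss23 and Ctse than CD49f-/low luminal cells. These 8 genes passed the test (limma, 5 arrays), which is 11.8% of the 68, against 5.59% of all rows (3.02% higher and 2.57% lower). At an unadjusted p under 0.05 there were 27 genes, against 27% of all rows. The groups did not overlap for 34 genes, against 47.4% of all rows. The median difference was -0.09 for the 68 genes and 0.14 for all rows.

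Mme was at -1.34, -0.76 and -1.08 in CD24high and at 0.05 and 0.38 in CD49f-/low arrays, a difference of -1.28 (SE 0.23, limma adjusted p = 0.0222). In Thy-1- basal and myoepithelial arrays it was between 0.25 and 1.62. Adamts15 was at 0.19, 0.61 and -0.09 in CD24high and at 1.34 and 1.35 in CD49f-/low arrays, where it was higher than in any other array of the study. It differed by -1.11 (SE 0.23, limma adjusted p = 0.0333). Adamts10 was at -1.07, -0.88 and -0.76 in CD24high and at 0.35 and -0.04 in CD49f-/low arrays, a difference of -1.06 (SE 0.20, limma adjusted p = 0.0269). Klk11 was at -0.16, 0.03 and 0.02 against 0.86 and 0.83 and differed by -0.88 (SE 0.18, limma adjusted p = 0.0310).

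Cst3 had the largest difference, -1.76 (SE 0.32, limma adjusted p = 0.0250). It was at 0.18, -0.70 and -0.29 in CD24high and at 1.92 and 1.06 in CD49f-/low arrays, and the higher of the latter was replicate 1. Myeloid markers, of which 7 of 19 were measured, had medians of 1.67 in that replicate and -0.06 in replicate 2 of CD49f-/low, and of -0.67, -0.43 and -0.62 in CD24high arrays. Of these 7 markers, 2 were called lower in CD24high cells. Ctss, a cathepsin of antigen-presenting cells, was at 0.55 in that replicate, at -0.13 in the other one and at -0.69, -0.93 and -0.59 in CD24high arrays. CD45, which myeloid cells carry, was among the stains of the sort, and the part of these cells in the values was not tested.

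In the other direction, Tmprss4 was at 1.70, 0.84 and 1.73 in CD24high and at -0.07 and 0.17 in CD49f-/low arrays, a difference of 1.37 (SE 0.28, limma adjusted p = 0.0330). The CD49f-/low values lay within the basal range of -1.11 to 0.86. Prss23, a gene of the basal side, was at -0.40, -1.21 and -0.79 against -1.93 and -2.29, so that it was lowest in CD49f-/low cells, with a difference of 1.31 (SE 0.26, limma adjusted p = 0.0300). Ctse was at 1.15, 0.83 and 1.03 against -0.08 and 0.34, a difference of 0.87 (SE 0.21, limma adjusted p = 0.0477).

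These 8 calls rest on few arrays. None of the 68 genes passed without CD24high replicate 3, against 0.0417% of all rows, and none when all 14 arrays shared a fit, against 0.0556%. Without CD24high replicate 2, 4 genes passed, against 2.02% of all rows, and without CD24high replicate 1, 11 passed, against 9.21%. Leaving out a CD49f-/low array left 1 array of that population, so calls of those fits are not counted. The difference of Cst3 was -1.33 without CD49f-/low replicate 1. Scaling moved the split of calls over all rows from 217 higher and 185 lower to 123 and 282 with arrays centred on their medians and to 138 and 246 with quantile normalization, and that of the 68 genes to 2 and 10 and to 2 and 5. From the lists of related genes, 0, 0 and 2 were higher and 2, 2 and 1 lower in CD24high cells, in the order given above. Of all rows, 3.02% were higher and 2.57% lower.

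**Figure D4:**
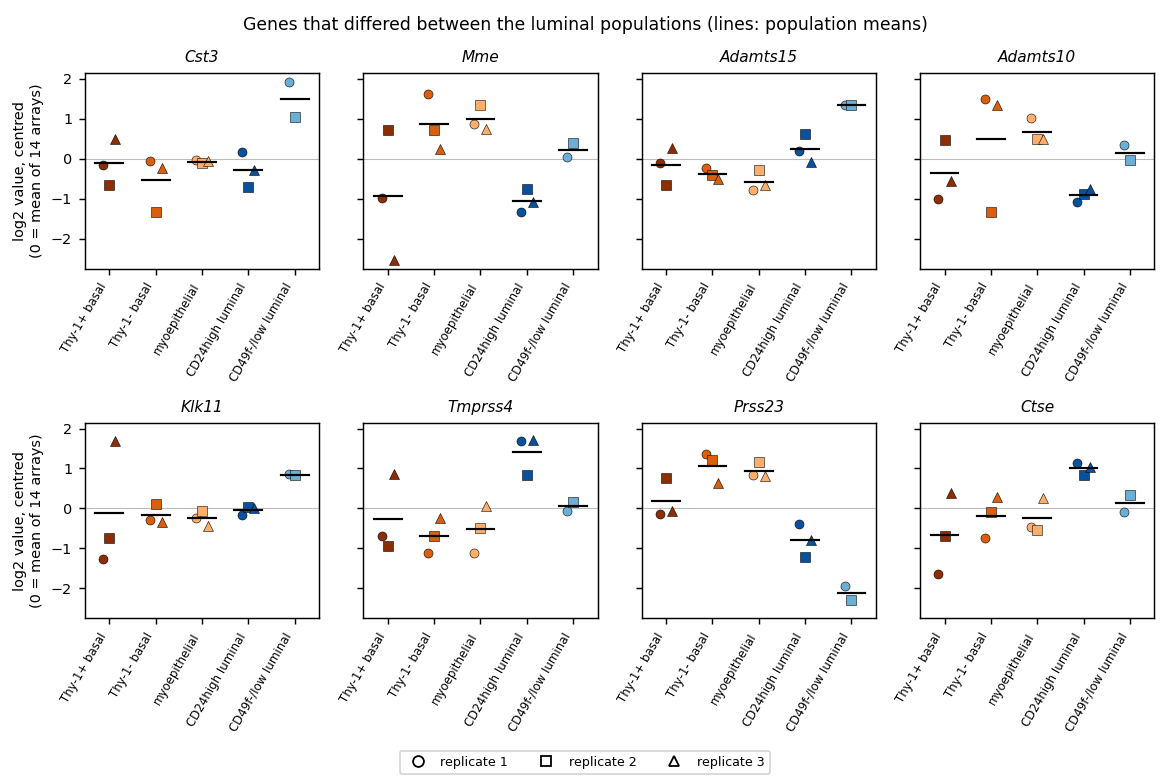
Centred log2 values (y axis) of the 8 genes that differed between the luminal populations, in each array of the 5 populations (x axis); symbols are replicates and horizontal lines population means. Cst3, Mme, Adamts15, Adamts10 and Klk11 lie lower in all 3 CD24high luminal arrays than in both CD49f-/low luminal arrays, and Tmprss4, Prss23 and Ctse lie higher.

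Which population held the highest mean of a gene was uneven. The myoepithelial population held it for 24 genes, CD24high luminal for 16, Thy-1+ basal for 14, and CD49f-/low luminal and Thy-1- basal for 7 each. CD24high luminal held the lowest mean for 31. These are counts of means, without a test of neighbours in the order. They were not made over all rows, so they are not set against the whole table.

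The study's central contrast is that of CD24medCD49fhigh cells with and without Thy-1. No gene of the 68 passed the test between Thy-1+ and Thy-1- basal cells (limma, 6 arrays), against 0.0417% of all rows, which is 3. At an unadjusted p under 0.05 there were 4 genes, against 5.29% of all rows, and rank products, the study's own method, called 4, against 2.27% of all rows. The median difference was -0.22 for the 68 genes and -0.42 for all rows, and with arrays centred on their medians that of the 68 genes was 0.19 and that of all rows -0.01.

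For the genes with the largest falls, the low values came from Thy-1+ replicates 1 and 3. Serpinb6b was at -0.83, 2.17 and -2.24 in Thy-1+ and at 2.25, 2.01 and 1.57 in Thy-1- arrays, a difference of -2.24 (SE 0.73, limma adjusted p = 0.692). Serpinb11 was at -1.87, 2.10 and -0.67 against 1.88, 2.02 and 2.04 (-2.13, SE 0.72, limma adjusted p = 0.699), and Mme at -0.98, 0.72 and -2.53 against 1.62, 0.71 and 0.25 (-1.80, SE 0.71, limma adjusted p = 0.752). For all 3 genes Thy-1+ replicate 2 lay among or above the Thy-1- arrays, and replicates 1 and 3 lay below them. The latter are the arrays with the lowest medians over all rows and with the lowest medians of basal epithelial markers, 0.61 and 0.51, against 0.79 to 2.00 in the other basal arrays. Their medians of Schwann cell markers, of which 5 of 10 were measured, were 1.45 and 1.35, against -1.13 to 0.18 in all other arrays. Of these 5 markers, 1 was called higher in Thy-1+ than in Thy-1- basal cells. The part of such cells in the values was not tested.

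Timp4 was at 3.10, -0.46 and -0.13 in Thy-1+ and at -1.33, -0.70 and -0.76 in Thy-1- arrays. It was higher in each Thy-1+ array than in each Thy-1- array, by 1.77 on average (SE 0.72, limma adjusted p = 0.755). The groups overlapped for all but 2 of the 68 genes and did not overlap for 6.66% of all rows. Tfpi was at 2.13, 0.13 and 0.79 against 0.38, -0.97 and -0.06 (1.23, SE 0.70), and the Adamts-like gene Adamtsl5 at 1.97, -0.39 and 1.15 against -0.50, 0.14 and 0.31 (0.93, SE 0.70), both with a limma adjusted p of 0.755. For Timp4, Tfpi and Adamtsl5 the highest value was that of Thy-1+ replicate 1, the array with the highest endothelial marker median. None of these differences exceeded the spread between replicates by the test.

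Against myoepithelial cells, Thy-1+ basal cells likewise gave 0 calls among the 68 genes (limma, 6 arrays), against 0% of all rows, with 4 genes at an unadjusted p under 0.05 against 5.33%. Rank products called 5, against 2.04% of all rows. Serpinb11 (1.41, 2.57 and 2.45 in myoepithelial arrays) differed by -2.29 (SE 0.83), Mme (0.86, 1.35 and 0.74) by -1.91 (SE 0.72) and Ctsl (1.15, 0.73 and 0.95) by -1.59 (SE 0.63), with a limma adjusted p of 0.548 for each. Mme was lower in each Thy-1+ array than in each myoepithelial array, among 8 genes without overlap, against 8.86% of all rows. In the other direction the smallest p were those of Adamtsl5 (1.09, SE 0.62), Capn5 (0.54, SE 0.52) and Klk5 (0.70, SE 0.68), and that of Klk5 turned to -0.15 without Thy-1+ replicate 3. Replicates with the same number deviated together in these populations, and with the replicate number as a block Serpinb11 (-2.29, SE 0.55, limma adjusted p = 0.0104) and Serpinb6b (-2.04, SE 0.55, limma adjusted p = 0.0321) passed the test, against 0.765% of all rows. That SE is the same for every row of this fit, since limma took 1 variance for all rows, and is not the spread of each gene. Without Thy-1+ replicate 2, the array that was unlike the other Thy-1+ arrays for these genes, 7 genes passed: Serpinb11, Serpinb6b, Mme, Capn6, Adamts18 and Ctsl were lower and Adamtsl5 was higher, against 11.9% of all rows.

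Thy-1- basal and myoepithelial cells gave 0 calls (limma, 6 arrays), against 0% of all rows, with 1 gene at an unadjusted p under 0.05 against 1.17% of all rows. That gene was Timp4, at -1.33, -0.70 and -0.76 in Thy-1- and at 2.03, 0.63 and -0.42 in myoepithelial arrays, which did not overlap, as for 4 of the 68 genes and 3.74% of all rows (-1.68, SE 0.55, limma adjusted p = 0.999). Tfpi (-0.82, SE 0.41) and Adamts4 (-0.63, SE 0.32) were next among the lower genes and Ctsh (0.86, SE 0.42), Capn8 (0.51, SE 0.32) and Tmprss2 (0.65, SE 0.43) among the higher ones, each with a limma adjusted p of 0.999. Rank products called 3 genes, Ctsh and Wfdc2 higher and Timp4 lower, against 2.24% of all rows. These comparisons share arrays with each other, and their values are given side by side without a test of one against another. A p that misses the threshold does not show that the basal populations have the same protease genes, given SEs of up to 0.87 log2 for the genes named.

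**Figure D5:**
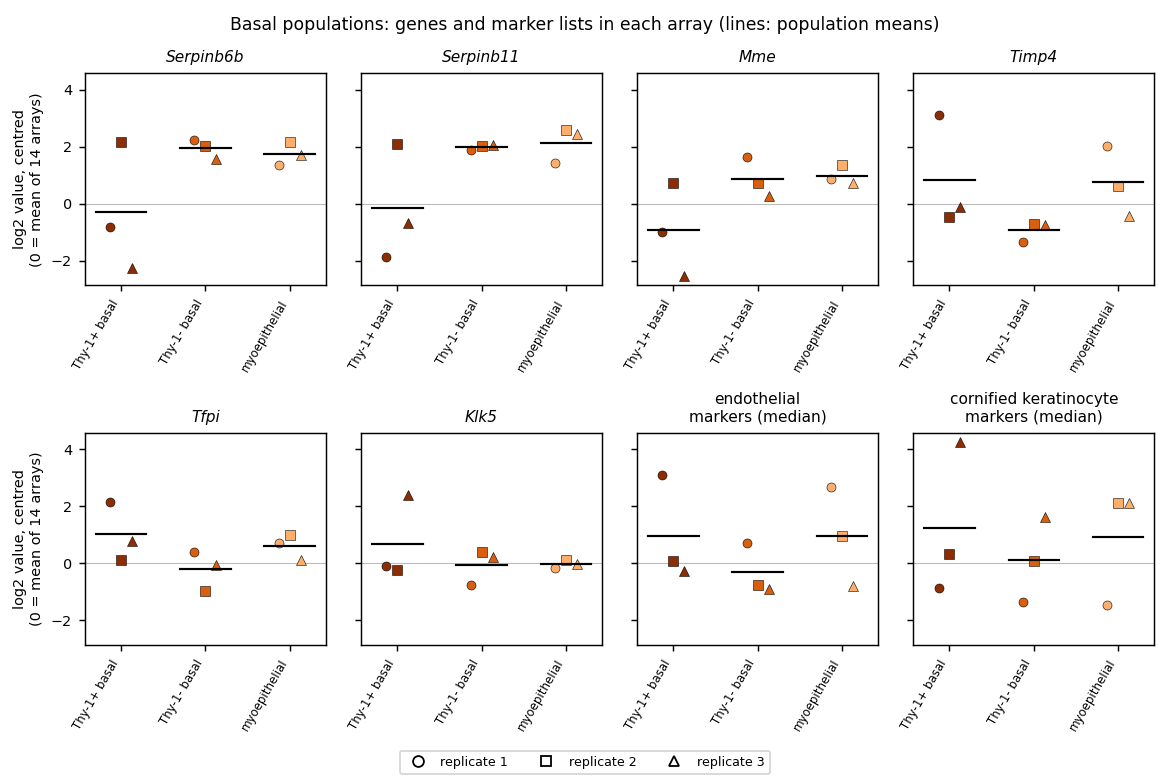
Centred log2 values (y axis) in each array of the 3 basal populations (x axis) for 6 genes and for the medians of the endothelial and cornified keratinocyte marker lists; symbols are replicates and horizontal lines population means. Thy-1+ replicate 2 lies near the other populations for Serpinb6b, Serpinb11 and Mme where replicates 1 and 3 lie below, Timp4 is highest in the arrays with the highest endothelial medians, and Klk5 in the array with the highest keratinocyte median.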

How the data were processed

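The authors deposited 1 table of log2 values for the 14 arrays. By the study's methods these were made with RMA (MIDAS), followed by a filter in Cluster on signal and on the difference between arrays, and by centring of every probe set on its mean. RMA and GCRMA are both named in the submitters' processing notes, without a version. Each row of the deposited log2 table had a mean of 0, and the smallest row range was 2.0 log2. Signal over background was not used here, and the number of arrays limits the precision.

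From 9645 probe sets, the 8499 that carry a single symbol gave 6044 genes as means per symbol, and 199 with several symbols and 947 with none stayed single rows, 7190 in all. Tests were two-sided and used lmFit, contrasts.fit and eBayes of limma 3.58.1 (R 4.3.3), with Benjamini-Hochberg adjustment over all 7190 rows and a threshold of 0.05, after testing on simulated data. All 14 arrays entered the luminal minus basal fit, and only the arrays of the groups compared entered each other fit. Rank products, after the study's methods, used 100 permutations and p under 0.01 without adjustment. Other tools were Python 3.11.15, numpy 2.4.6, pandas 2.3.3 and matplotlib 3.10.9.

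The genes and lists were chosen with earlier results of these data known. Genes chosen by rule were the 12 largest rises and falls between lineages, up to 6 each way or, without calls, the 3 of smallest p each way in the other comparisons, all Mmp, Timp and plasminogen activator genes, and the 2 largest differences of each other class. The remaining genes were named to account for each class, many of them also with SE and limma adjusted p. Same-numbered replicates deviated together for Thy-1+ basal and myoepithelial arrays (r = 0.388, 0.391 and 0.386 across rows) and for Thy-1- basal and myoepithelial arrays (0.374, 0.328 and 0.558). This pairing was read from the data. For Thy-1+ and Thy-1- basal arrays r was -0.002, -0.160 and 0.245, and for the luminal arrays (2 numbers) 0.296 and 0.151. The main fits had no block and did not use these pairs. The replicate number entered as a block only in an alternative fit, run for every comparison.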

Additional observations from a re-analysis of the deposited data

How the results depend on the processing

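Between lineages, the count of called genes stayed within 1.5 times of 46 in each alternative but rank products. Rank products called 30 (10 higher and 20 lower), against 17.1% of all rows. The count was 47 with the replicate block (47.7% of all rows) and 46 with each probe set on its own row (46.4% of probe sets). It was 44 with arrays centred on their medians (41.7%), 45 after quantile normalization (45.1%) and 41 with a log2 difference of 1 or more required (33.3%). With 1 array left out of a population of 3 arrays it was 43 to 48 (36.4% to 59.4%). Leaving out a CD49f-/low array, or Thy-1+ replicates 1 and 3, left 1 array of a population, and those counts are not given. The latter, the arrays of lowest median, were chosen after the data were seen. Each gene chosen for this comparison by the rule given above was read in each alternative limma fit, and these fits share most arrays. Adam12, Adamtsl3, Capn1, Ctse and Serpinb9 fall outside that rule, and their lost calls are not in the counts that follow. The counts do include the fits that left 1 array of a population. Of the pairs of gene and fit, 744 kept their direction and their side of the threshold, 8 lost and 7 gained a call. Mmp14 turned from -0.11 to 0.031 without Thy-1+ replicate 3 (range with 1 array left out -0.26 to 0.031). Without CD49f-/low replicate 1, Serpinb9 was at -0.98 and Ctse at 1.04, and without CD49f-/low replicate 2, Adamtsl3 was at -0.81 and Capn1 at 0.93.

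Between the luminal populations, 8 genes were called, against 5.59% of all rows. The count became 0 with all 14 arrays in 1 fit (0.0556% of all rows) and 17 with the replicate block (11.5%). It was 9 by probe set (6.3% of probe sets), 12 with centred arrays (5.63%) and 7 after quantile normalization (5.34%). A log2 difference of 1 or more left 6 (4.02%), and rank products called 10 (6.63%). With 1 CD24high array left out it was 0 to 11 (0.0417% to 9.21%). The luminal arrays share only replicate numbers. Between Thy-1+ and Thy-1- basal cells, rank products called 4 genes, and the limma counts were 0 in every other alternative. Between Thy-1+ basal and myoepithelial cells the replicate block gave 2 calls, rank products 5 and leaving out 1 array 0 to 7, and Klk5 turned from 0.70 to -0.15 without Thy-1+ replicate 3 (range with 1 array left out -0.15 to 1.17). Between Thy-1- basal and myoepithelial cells rank products called 3, and the limma counts were 0 throughout. The block changed no other call than those given here, apart from Mme between lineages, which it called (-0.88, limma adjusted p = 0.0496). The cause of these changes was not tested. A filter on dim probe sets and another background correction could not be run on centred values, and signal over background is not known here.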
